A study of Homo sapiens with 6 samples.

Results

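SK-N-AS, a human neuroblastoma line in long-standing culture, received either of 2 small interfering RNAs before its RNA was sequenced, siPrp19 against Prp19 or NC as the negative control. Prp19 is the splicing factor encoded by *PRPF19*. The labels state a transfection time of 72 h, a longer time than its published protocol names, and no other treatment or genetic change separates the groups, which are of 1 cell line. The genes described here are a list of 55 of 58735 in the files. It holds integrin subunits, focal adhesion proteins and components of the actin cytoskeleton, and its members are named by gene symbol, with no threshold on measured values. The list was chosen with earlier results of these data known, so the shares of members given below are not independent of these data. All 55 symbols were found.

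Integrins are transmembrane receptors, each made of an alpha and a beta subunit, that bind the extracellular matrix outside the cell. On the inside, talin, kindlin, vinculin, paxillin and focal adhesion kinase couple them to actin filaments. These filaments are bundled by alpha-actinin, lined by tropomyosin and pulled by non-muscle myosin II. The tension that results is known to act upstream of YAP, and neuroblastoma cells use these structures when they spread and migrate.

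Each file held FPKM (fragments per kilobase of exon, scaled to the fragments of the library) in a single value column. These were named NCa, NCb, NCc, siPrp19a, siPrp19b and siPrp19c, and libraries are called by these names here. In 4 of the 6 files, the column bore the description of another sample than the one the file was recorded under. For NCb and siPrp19b, the recorded sample also carried the opposite group, siPrp19 for NCb and NC for siPrp19b. The target checked these names. *PRPF19* was at 83.0, 83.1 and 93.0 FPKM in NCa, NCb and NCc, and at 19.6, 19.1 and 18.5 FPKM in siPrp19a, siPrp19b and siPrp19c. Its level therefore followed the column names in all 6 libraries and went against the recorded label in NCb and siPrp19b. The main comparison was made by column name, 3 libraries against 3. Each result was also computed with the 4 libraries whose name and label agree, and with the 6 libraries as labelled. By column name, *PRPF19* fell by 2.12 ± 0.07 (SE) on the log2(FPKM + 1) scale (limma, adjusted p = 0.000215).

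Between 14887132 and 19977811 reads per library were recovered from the FPKM values. Mitochondrial genes took 8.29% of the reads in siPrp19a and from 5.15% to 5.49% in the other libraries. Read counts of library pairs were compared by chi-square divided by its degrees of freedom, which is about 1 under sampling noise alone. It was 1.67 for NCa with NCb and 2.45 for siPrp19b with siPrp19c. All other pairs lay between 16.05 and 41.28. The methods of the study describe biological replicates, but p-values here measure the spread between these libraries, which may be technical. In each SD, SE and p-value of the main comparison, NCa and NCb count as separate libraries, as do siPrp19b and siPrp19c. In a bulk sample, fewer cells of a kind and less RNA per cell cannot be told apart.

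The cell type in the labels was checked against lists of markers. Of 11 adrenergic neuroblastoma markers, 10 had a mean of at least 1 FPKM, whereas *TH*, the first enzyme of catecholamine synthesis, was at most 0.66 FPKM. Their sum was 359.8 to 382.3 FPKM in the NC columns and 301.7 to 307.9 FPKM in the siPrp19 columns. Of 8 mesenchymal markers, 7 reached that level, with sums of 282.5 to 317.2 and 222.2 to 237.5 FPKM. Of 5 epithelial markers, 2 reached it, both keratins, with sums of 44.96 to 60.88 and 45.32 to 48.85 FPKM. No endothelial marker of 4 reached it, and their sums were at most 1.07 and 1.12 FPKM, with *CDH5* at 0. Among 5 leukocyte markers, *PTPRC* alone reached it, and it fell in siPrp19 by the test used below, with sums of 25.01 to 30.81 FPKM in the NC columns and 16.98 to 20.57 FPKM in the siPrp19 columns. *CD3E* was listed at 0 in every library. By the same test, 1 mesenchymal marker fell in siPrp19, and limma called 0 epithelial markers, with 0 at an unadjusted p under 0.05. The part of these markers in the results below was not tested.

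Of the 55 genes, 47 had a mean of at least 1 FPKM over the 6 libraries and entered the test with 13718 genes in all. The 8 others were *ITGA9*, *ITGA10*, *ITGB4*, *ITGB8*, *ILK*, *PARVA*, *MYL9* and *CNN1*. By column name, limma called 9 of the 47 at 0.05 after adjustment, 1 higher and 8 lower in siPrp19, or 19.1% of those tested. Over all tested genes, 7.94% passed, 2.57% higher and 5.37% lower, against 2.13% and 17% of the members. The 9 were the integrin subunits *ITGA5* and *ITGA8*, the tropomyosins *TPM1* and *TPM4*, the myosin heavy chains *MYH9* and *MYH10*, the calponins *CNN2* and *CNN3*, and the formin *DIAPH1*. *ITGA5* was the member that rose. The change exceeded 1.5-fold on the log2(FPKM + 1) scale for *ITGA8*, *CNN3* and *MYH10*. *ITGA5* stayed just below this limit on that scale, but its siPrp19 mean in FPKM was 151.28% of its NC mean. Of the 55 members, 39 overlap a gene on the opposite strand, among them *ITGA5*, *TPM1*, *TPM4*, *MYH10*, *CNN2* and *DIAPH1*, and the strand setting of the counting is not given in the sources used here, so reads of such pairs may be mixed. The median log2 fold change was -0.09 over the 47 members and -0.02 over all tested genes. Other scalings moved both, to -0.02 and 0.01 with quantile normalization and to -0.02 and 0.06 with voom.

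Leaving out a library changed this count. It was 3 without NCa, NCb, siPrp19b or siPrp19c, in each case *ITGA5*, *ITGA8* and *CNN3*, beside 1.92%, 2.44%, 1.97% and 1.84% of all tested genes. It was 9 without siPrp19a, beside 7.53%, and 11 without NCc, where *ITGA2* and *ACTN4* joined, beside 9.87%. The count over all genes thus moved together with that of the members. Each library whose removal left 3 members belongs to a close pair, NCa with NCb or siPrp19b with siPrp19c. With voom (a limma model for reads) on the recovered reads, 7 of 47 passed, again 1 higher and 6 lower, beside 9.97% of all tested genes. Over all genes, 32.4% of the calls were higher in the main comparison, 46.1% under quantile normalization and 55.1% with voom. When NCa was averaged with NCb and siPrp19b with siPrp19c, limma called none of the 47, beside 0.0146% of all tested genes, and 8 had an unadjusted p under 0.05, beside 12.4%. The log2 fold changes were then -0.84 for *ITGA8*, -0.71 for *CNN3*, 0.56 for *ITGA5* and -0.51 for *TPM4*, with limma adjusted p of 0.135 or more for all 9 members.

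**Figure D1:**
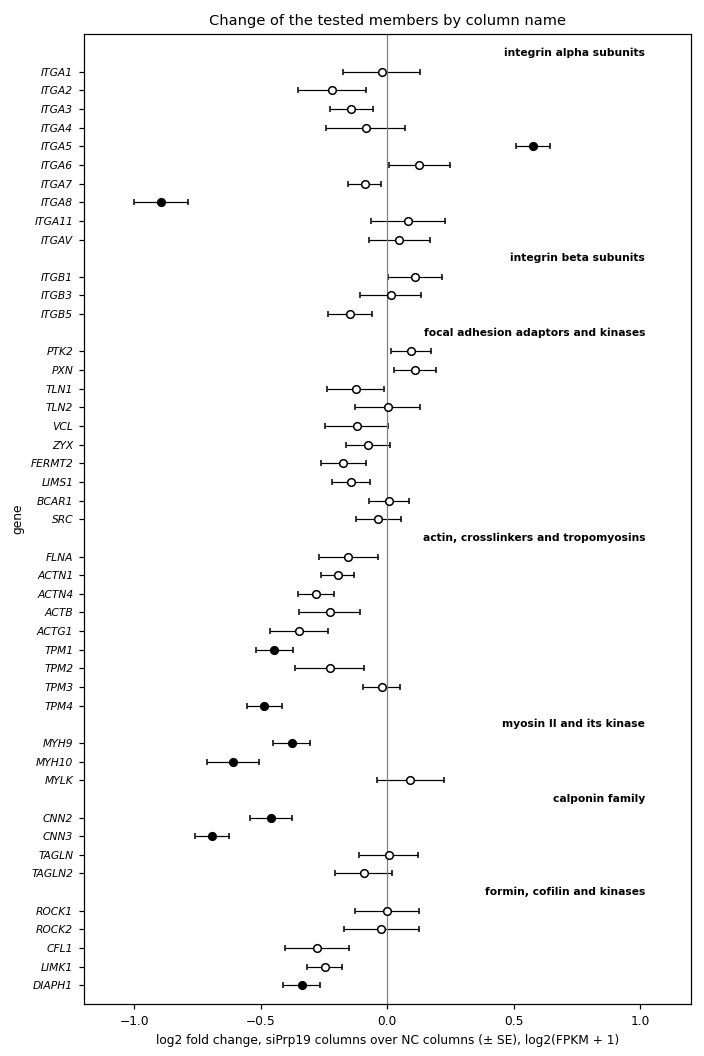
Log2 fold change (siPrp19 columns over NC columns, log2(FPKM + 1) scale) with its standard error for 44 of the 47 tested members, grouped by role. Filled points had a limma adjusted p under 0.05. *ITGA5* at 0.58 stands to the right of 0 and the 8 other filled points to the left, down to -0.89 for *ITGA8*.

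The integrin alpha subunits pair with a beta subunit to set which matrix protein is bound. Of 12 listed, 10 were tested, and 1 rose and 1 fell, beside 2.57% and 5.37% of all tested genes. *ITGA5*, which forms the fibronectin receptor with beta 1, was at 24.2, 24.8 and 23.8 FPKM in NCa, NCb and NCc. It was at 34.6, 38.1 and 37.5 FPKM in siPrp19a, siPrp19b and siPrp19c. All siPrp19 libraries lay above all NC libraries. The mean rose from 24.3 ± 0.463 to 36.7 ± 1.90 FPKM (SD, n = 3), a log2 fold change of 0.58 ± 0.07 (SE, limma adjusted p = 0.00613).

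*ITGA8*, whose product also binds beta 1 and is known from kidney development and smooth muscle, moved the opposite way at a lower level. It was at 2.80, 2.61 and 2.35 FPKM in the NC columns, from 290 to 334 reads per library. In the siPrp19 columns it was at 1.10, 0.869 and 0.822 FPKM, from 108 to 131 reads. The groups did not overlap, and the mean of the siPrp19 columns was 36.0% of that of the NC columns. The log2 fold change was -0.89 ± 0.11 (SE, limma adjusted p = 0.00638), and -1.41 with voom, which adds no pseudocount of 1 FPKM. *ITGA8* was the tested member with a group mean under 1 FPKM, in siPrp19, so it entered the test through its level in NC.

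NCc was the lowest of the NC columns for 10 of the 10 tested alpha subunits, and for 30 of the 47 members. It was the highest for 17 members, among them 6 of the 9 actins, crosslinkers and tropomyosins. Among 68 further tested genes of the same structures, described below, NCc was lowest for 29 and highest for 31. The share over all tested genes was not computed. *ITGAV*, the shared partner of several beta subunits in vitronectin receptors, was at 63.2, 64.5 and 48.2 FPKM in the NC columns and at 60.8, 61.6 and 57.9 FPKM in the siPrp19 columns. *ITGA1*, a collagen receptor subunit, was at 34.6, 35.9 and 25.7 FPKM in NC and at 36.5, 29.7 and 28.1 FPKM in siPrp19. The groups overlapped for both, as for each of the 8 uncalled alpha subunits. *ITGA9* and *ITGA10*, below the filter, were at most 0.541 and 0.761 FPKM.

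None of the 3 tested beta subunits passed with limma (smallest adjusted p = 0.367) or voom, beside 7.94% and 9.97% of all tested genes. Of the 3, 0 had an unadjusted limma p under 0.05, beside 3240 of the 13718 tested genes. So few genes do not describe the role. *ITGB1*, the partner of most alpha subunits, was the most abundant integrin transcript at 178, 177 and 152 FPKM in NC and 201, 176 and 170 FPKM in siPrp19. *ITGB5*, a vitronectin receptor subunit, was at 54.4, 51.8 and 58.1 FPKM in NC and at 44.8, 52.9 and 50.4 FPKM in siPrp19. The groups overlapped for both. *ITGB3* had a mean of 1.52 FPKM over the 6 libraries, and *ITGB8* and *ITGB4*, below the filter, were at most 1.04 and 0.771 FPKM.

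**Figure D2:**
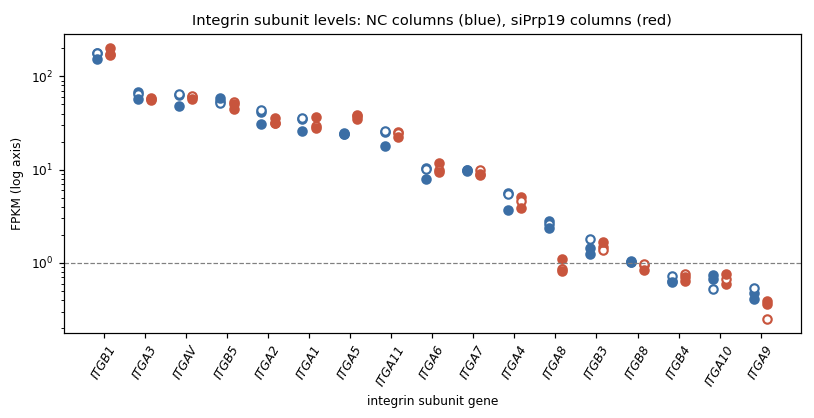
FPKM (log axis) of the 17 integrin subunit genes in each library, ordered by mean level, with NC columns in blue, siPrp19 columns in red and open circles for NCb and siPrp19b, whose recorded label states the opposite group. The dashed line marks the filter at 1 FPKM. The colours separate for *ITGA5* (24.3 and 36.7 FPKM) and *ITGA8* (2.59 and 0.931 FPKM), and for *ITGB8* and *ITGA9* below the filter.

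The member adaptors and kinases that link integrins to actin gave no call, whereas 4 of 25 tested genes on a further adaptor list, described below, passed. Of 12 listed members, 10 were tested and 0 passed with limma (smallest adjusted p = 0.293) or voom, beside 7.94% and 9.97% of all tested genes. Of the 10, 0 had an unadjusted limma p under 0.05, beside 3240 of the 13718 tested genes. Their log2 fold changes ran from -0.17 to 0.11. *PTK2*, which encodes focal adhesion kinase, was at 10.4, 10.6 and 10.1 FPKM in NC and at 12.3, 10.5 and 10.6 FPKM in siPrp19. *TLN1*, which encodes the integrin activator talin, was at 33.9, 32.5 and 25.6 FPKM in NC and at 28.4, 28.7 and 26.4 FPKM in siPrp19. *VCL*, which encodes vinculin, was at 25.7, 24.7 and 19.2 FPKM in NC and at 23.3, 20.6 and 19.5 FPKM in siPrp19. The groups overlapped for all 10, whereas 18.1% of all tested genes were lower and 13.2% higher without overlap. *ILK* and *PARVA* encode partners in the complex that joins integrins to actin through kindlin and PINCH. *ILK* had 22 to 55 reads per library, and its locus overlaps a gene on the opposite strand, whose reads cannot be told apart without strand. *PARVA* had 0 to 4 reads.

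Actin genes, crosslinkers and tropomyosins were all tested, 9 of 9, and 2 passed the test, both lower, beside 5.37% of all tested genes. *TPM4*, a tropomyosin of non-muscle cells, was at 76.5, 79.6 and 82.1 FPKM in NC and at 55.1, 57.1 and 57.1 FPKM in siPrp19. The means were 79.4 ± 2.79 and 56.4 ± 1.15 FPKM (SD, n = 3), with a log2 fold change of -0.49 ± 0.07 (SE, limma adjusted p = 0.0101). *TPM1* was at 45.2, 44.7 and 46.1 FPKM in NC and at 35.6, 31.4 and 32.0 FPKM in siPrp19. The log2 fold change of *TPM1* was -0.45 ± 0.07 (SE, limma adjusted p = 0.0157), and the groups of both genes were separate. The other tropomyosins gave overlapping groups. *TPM3* was at 78.8, 78.0 and 83.6 FPKM in NC and at 82.2, 78.5 and 75.9 FPKM in siPrp19, and *TPM2* was between 6.08 and 7.54 FPKM in NC and between 4.54 and 6.74 FPKM in siPrp19.

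The cytoplasmic actins were the most abundant members. *ACTB* was at 759, 735 and 819 FPKM in NC and at 732, 642 and 605 FPKM in siPrp19. *ACTG1* was at 757, 741 and 832 FPKM in NC and at 664, 586 and 580 FPKM in siPrp19. Their groups did not overlap, but neither passed the test, with log2 fold changes of -0.23 ± 0.12 and -0.35 ± 0.11 (SE) and limma adjusted p = 0.308 and 0.121. Both belong to a family with many near-identical processed copies, between which reads can be split, so these values are uncertain. *ACTN4*, an alpha-actinin that crosslinks filaments, was at 63.5, 62.6 and 58.2 FPKM in NC and at 50.2, 52.0 and 48.6 FPKM in siPrp19, with a log2 fold change of -0.28 ± 0.07 (SE, limma adjusted p = 0.0582). *FLNA*, which encodes filamin A, gave overlapping groups, from 125 to 160 FPKM in NC and from 126 to 140 FPKM in siPrp19.

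Myosin II pulls on actin filaments to make tension. Of 4 listed genes, 3 were tested and 2 fell, beside 5.37% of all tested genes, and so few genes do not describe the role. *MYH10*, the heavy chain of non-muscle myosin IIB, was at 20.5, 21.1 and 17.1 FPKM in NC and at 13.6, 12.4 and 11.4 FPKM in siPrp19. *MYH9*, the heavy chain of non-muscle myosin IIA, was at 62.5, 62.2 and 56.1 FPKM in NC and at 46.3, 47.0 and 45.0 FPKM in siPrp19. Every siPrp19 library was below every NC library for both. The log2 fold changes were -0.61 ± 0.10 and -0.38 ± 0.07 (SE), with limma adjusted p = 0.0176 and 0.0259. *MYH9* did not pass with voom, where its adjusted p-value was 0.0537. *MYLK*, the kinase that activates myosin II, was at 0.997 to 1.58 FPKM in NC and at 1.35 to 1.68 FPKM in siPrp19. The light chain gene *MYL9*, a marker of smooth muscle, had at most 1 read per library, and with fewer than 3 reads no change of it was detectable at this depth.

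Calponins and transgelins bind actin filaments and stabilise them. Of the 5 genes, 4 were tested and 2 fell, beside 5.37% of all tested genes. *CNN3*, the acidic calponin, was at 54.9, 53.8 and 56.6 FPKM in NC and at 32.7, 35.2 and 33.1 FPKM in siPrp19. The mean went from 55.1 ± 1.42 to 33.7 ± 1.34 FPKM (SD, n = 3), a log2 fold change of -0.69 ± 0.07 (SE), and its limma adjusted p = 0.00336 was the smallest among the members. *CNN2* was at 30.8, 31.2 and 33.8 FPKM in NC and at 21.1, 24.8 and 23.0 FPKM in siPrp19, with a log2 fold change of -0.46 ± 0.08 (SE, limma adjusted p = 0.0208). The smooth muscle calponin *CNN1* had between 5 and 15 reads in each library and did not enter the test. The transgelins gave overlapping groups. *TAGLN2* was at 296, 298 and 352 FPKM in NC and at 271, 316 and 299 FPKM in siPrp19, and *TAGLN* was between 2.36 and 3.45 FPKM in the 6 libraries.

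Formins elongate actin filaments and cofilin severs them. *DIAPH1*, a formin, was at 19.4, 20.7 and 18.0 FPKM in NC and at 15.7, 14.6 and 15.0 FPKM in siPrp19. Its groups did not overlap, and its log2 fold change was -0.34 ± 0.07 (SE, limma adjusted p = 0.0390). With voom, this value was 0.0756 and *DIAPH1* did not pass. *ROCK1* and *ROCK2*, kinases that promote myosin II activity, gave overlapping groups, at 7.87 to 10.7 and 6.11 to 8.86 FPKM in NC and at 8.67 to 10.8 and 6.95 to 8.92 FPKM in siPrp19. *CFL1*, which encodes the filament-severing cofilin, and *LIMK1*, the kinase that inactivates cofilin, did not overlap between the groups. Their log2 fold changes were -0.28 ± 0.13 and -0.25 ± 0.07 (SE), with limma adjusted p = 0.246 and 0.0804.

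**Figure D3:**
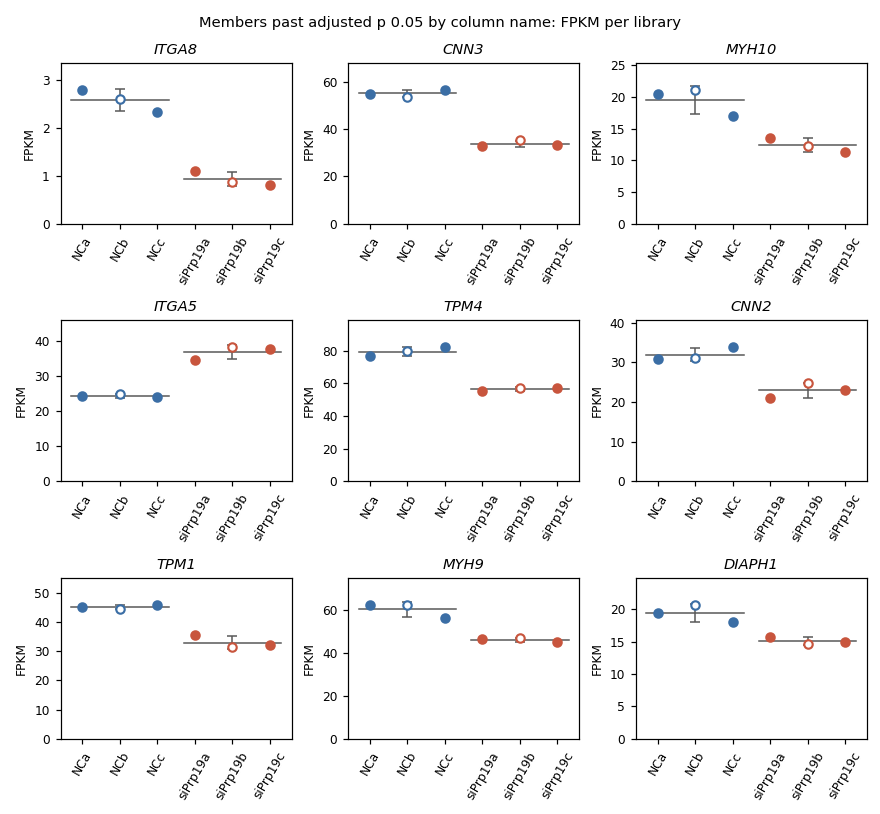
FPKM of the 9 members that passed the test, in each library, with y axes from 0. Lines and bars give the mean and SD of 3 libraries, blue is NC and red is siPrp19 by column name, and open circles are NCb and siPrp19b. In each panel the groups are apart, *ITGA5* with siPrp19 above NC and the 8 others with siPrp19 below NC.

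Across the list, 14 of the 47 tested members were lower in every siPrp19 library than in any NC library, or 29.8%, beside 18.1% of all tested genes. One member, *ITGA5*, was higher in every siPrp19 library, beside 13.2% of all tested genes. The median log2 fold changes by role were -0.05 for alpha subunits, 0.01 for beta subunits, -0.06 for adaptors and kinases, and -0.23 for actins, crosslinkers and tropomyosins. They were -0.38 for myosin II and -0.28 for the calponin family. No difference between these roles was tested. These counts and medians are on the FPKM scale. The ratio of recovered reads to the library total implied by that scale was 1.01, 1.01 and 1.04 in NCa, NCb and NCc. It was 0.989, 0.961 and 0.951 in siPrp19a, siPrp19b and siPrp19c. With voom on the reads, 26 of the 47 members had a negative log2 fold change, against 34 in the main comparison. The median over all tested genes was 0.06 with voom and -0.02 in the main comparison. The share of all tested genes with a negative value was not computed. On GRCh38 with GENCODE 29 names, *ITGA5* (ENSG00000161638) is at chr12:54395261-54419460, *ITGA8* (ENSG00000077943) at chr10:15513949-15720125, *CNN3* (ENSG00000117519) at chr1:94896949-94927278 and *MYH10* (ENSG00000133026) at chr17:8474205-8630761, all on the minus strand.

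**Figure D4:**
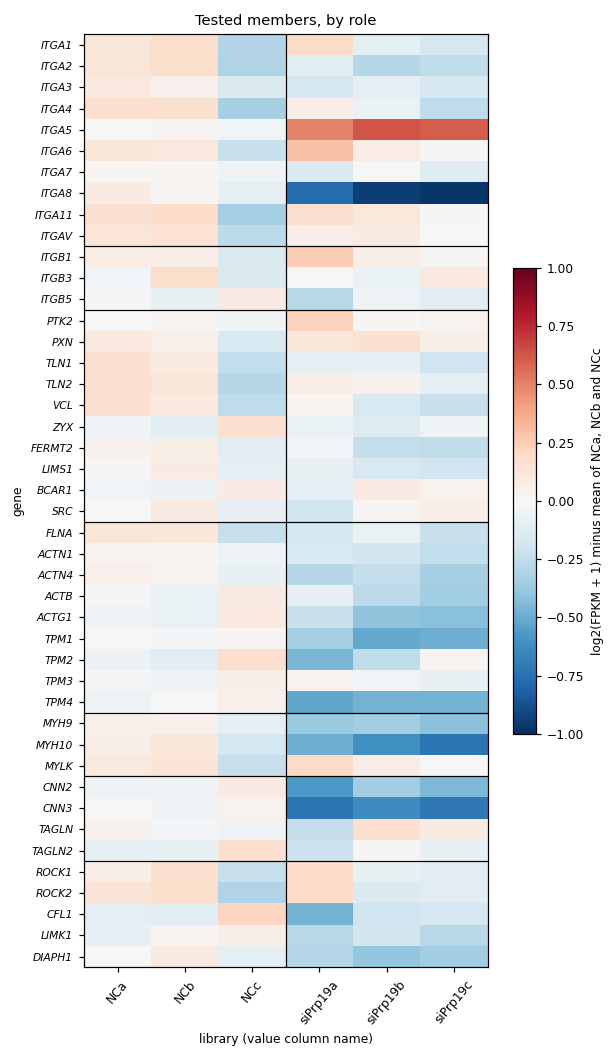
Values of 44 of the 47 tested members (rows, grouped by role) in each library (columns), given as log2(FPKM + 1) minus the mean of NCa, NCb and NCc, with red above and blue below that mean. The *ITGA8*, *TPM1*, *TPM4*, *MYH9*, *MYH10*, *CNN2* and *CNN3* rows are blue in all siPrp19 columns, the *ITGA5* row is red, and NCc is the lowest NC column for 30 of the 44 genes drawn. For 68 further tested genes of the same structures, not drawn, NCc is lowest for 29 and highest for 31.

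A further 85 genes of the same structures were examined beside the members, on lists also chosen with earlier results of these data known. Of these, 68 were tested and 6 passed, all lower in siPrp19, which is 8.82%. Of all tested genes, 7.94% passed, and 5.37% were lower. With voom, 7 of the 68 passed, beside 9.97% of all tested genes. Of the 7, 6 were lower and 1 higher, the tensin gene *TNS2*, named here after its values were seen. *ACTA2*, which encodes smooth muscle actin and overlaps a gene on the opposite strand, was at 12.0, 10.3 and 10.8 FPKM in NC and at 5.53, 4.56 and 4.88 FPKM in siPrp19. *ACTA2* changed by a log2 value of -1.01 ± 0.09 (SE, limma adjusted p = 0.00254). *TNS3*, a tensin of adhesions, fell from a mean of 12.1 to 6.84 FPKM, and *CALD1*, which encodes the filament-binding caldesmon, from 35.0 to 23.8 FPKM. *ENAH* and *EVL*, which extend filaments at adhesions, fell from 21.9 to 14.5 and from 7.78 to 5.63 FPKM. *LASP1*, an actin-binding LIM protein, fell from 36.3 to 26.4 FPKM. The limma adjusted p was 0.00863 for *TNS3*, 0.0108 for *CALD1*, 0.0110 for *ENAH*, 0.0185 for *EVL* and 0.0208 for *LASP1*. In the 4 libraries whose name and label agree, none of these 6 genes passed, with limma adjusted p from 0.082 for *ACTA2* to 0.243 for *EVL*. With close libraries averaged, none passed either. *ENAH*, *CALD1*, *LASP1* and *EVL* each passed in 2 of the 6 fits that left out a library, and *ACTA2* and *TNS3* in all 6. None of the 9 other integrin subunits on that list reached the filter. Of the 3 genes for SRF and its actin-regulated coactivators, limma and voom called 0, beside 7.94% and 9.97% of all tested genes. Of these 3 genes, 1 had an unadjusted limma p under 0.05, beside 3240 of the 13718 tested genes.

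Start sites of these genes were examined for motifs of factors that read the state of actin. SRF binds the CArG box, and the TEAD partners of YAP bind CATTCC. In the promoter table of RefSeq (GRCh38.p14), 44 of the 55 genes had an entry, and the 250 bases before the most upstream start in that table were searched on both strands. GENCODE 29 places some starts further upstream, so 13 of the 44 windows lay wholly inside the GENCODE gene, 25 partly and 6 outside it. No CArG box overlapped a CATTCC in the members. A CArG box was present for 6 of 44 members, or 13.6%, beside 1.15% of 27305 genes and 1.05% of the 9532 tested genes with an entry. It was present for 2 of the 9 members that passed the test, *CNN2* and *TPM4*, whereas *ACTG1*, *FLNA*, *MYLK* and *ROCK2* did not pass. The boxes of *CNN2* and *TPM4* are shown in capitals with 10 bases on either side, chosen after the values were known. The box began 89 bases before the start in *CNN2* and 173 in *TPM4*. In GENCODE 29, *TPM4* begins at chr19:16067021, so its box lies inside that gene.

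CNN2 (chr19:1026509-1026538, plus strand): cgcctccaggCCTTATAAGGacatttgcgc
TPM4 (chr19:16067355-16067384, plus strand): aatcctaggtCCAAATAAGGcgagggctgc

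CATTCC, read on either strand (GGAATG on the other), was present for 7 of 44 members, or 15.9%, beside 12% of all genes with an entry and 9.22% of the tested ones. Of the 9 members that passed the test, 3 held it, *ITGA5*, *MYH9* and *MYH10*. Among the 4 called members with the largest changes, *ITGA8* and *CNN3* held neither motif, and the CATTCC of *ITGA5* and *MYH10* is in capitals in these windows, 82 and 203 bases before the start. A match of letters is no evidence that a factor binds there.

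ITGA5 (chr12:54419333-54419358, minus strand): cagggacccaGGAATGcccccccgcc
MYH10 (chr17:8630913-8630938, minus strand): caatgagcgtCATTCCaggtgggtgg

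The comparison was repeated without NCb and siPrp19b, the libraries whose label contradicts their column name. With NCa and NCc against siPrp19a and siPrp19c, limma called 0 of the 47 members, beside 0.0146% of all tested genes, and 8 members had an unadjusted p under 0.05, beside 12.3%. The 9 members above kept their direction, 8 lower and 1 higher, with limma adjusted p from 0.12 for *CNN3* to 0.444 for *DIAPH1*. The log2 fold changes of *ITGA8*, *CNN3*, *MYH10* and *ITGA5* were -0.87, -0.74, -0.55 and 0.56. With voom on the reads of these 4 libraries, 3 members passed, *ITGA5*, *ITGA8* and *CNN3*, beside 1.92% of all tested genes. The median over the members was -0.10, beside -0.02 over all tested genes, and became 0.04 under quantile normalization.

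With all 6 libraries grouped as labelled, 0 members passed with limma, beside 0% of all tested genes, 0 had an unadjusted p under 0.05, beside 1.39%, and voom called none. Each grouping shares libraries with the others, so their values are not independent. *ITGA8* had a log2 fold change of -0.26 ± 0.34 (SE), *CNN3* of -0.30 ± 0.25 and *ITGA5* of 0.17 ± 0.22, and the limma adjusted p of each tested member was 1.00 after rounding. In this grouping *PRPF19* itself had a log2 fold change of -0.74 ± 0.73 (SE) and did not pass. The median over the members was -0.04, beside -0.01 over all tested genes, and was 0.05 under quantile normalization.

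**Figure D5:**
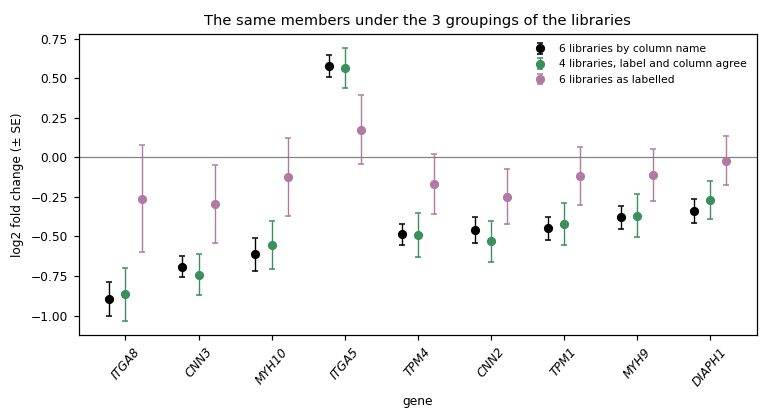
Log2 fold change with its standard error (log2(FPKM + 1) scale) of the 9 members for the 6 libraries by column name (black), the 4 libraries whose column name and label agree (green) and the 6 libraries as labelled (purple). Black and green points lie close together, such as -0.89 and -0.87 for *ITGA8*, while the purple points are nearer to 0, at -0.26 for *ITGA8*.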

How the data were processed

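The authors deposited 1 file of FPKM values per library. The submitters' processing notes name HISAT2 2.0.5, featureCounts 1.5.0-p3 and hg38; annotation release, strandedness, treatment of reads shared by several genes and the library total behind the FPKM scale are not given in the sources used here. The authors tested with DESeq2; here the deposited FPKM values were tested with limma, and voom on recovered reads was the count-based alternative. All 58735 identifiers were in GENCODE 29 (GRCh38), and 58207 had a current symbol in the reference table. FPKM times merged exon length was a whole multiple of 1 constant in each library, within 0.05 reads or the rounding of large values, for 100% of values above 0, which gave whole reads. The depth per library limits the genes with few reads.

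Columns were matched to samples by description, as the comparison by column name requires; the recorded sample gave the labelled groups. Genes with a mean of at least 1 FPKM over 6 libraries were tested as log2(FPKM + 1) with limma 3.58.1 (R 4.3.3), with a mean-variance trend, two-sided, with p-values adjusted by Benjamini-Hochberg across the genes tested. Fold changes on this scale understate those of low genes. Fit values are printed for *PRPF19*, the members past adjusted p 0.05, the 5 largest changes among other members and at most 6 further genes of the pathway. Sequences were to be shown for at most 4 called members with the largest changes; those of *CNN2* and *TPM4* fall outside this and were chosen after their values were seen. Python 3.11.15, pandas 2.3.3 and matplotlib 3.10.9 were used. The fit was tested on simulated data. The members and lists (including markers of adrenergic and mesenchymal neuroblastoma, epithelium, leukocytes and endothelium) were chosen with earlier results of these data known. Alternatives were another pseudocount, no filter, quantile normalization, equal library sums, voom, a replicate block, averaged close libraries and leaving out each library. Some members and markers are not reported here by name.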

Additional observations from a re-analysis of the deposited data

How the results depend on the processing

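By column name, 1089 genes and 9 members passed. Without the filter on low values, these were 512 and 5, with more genes tested. With the same sum in each library, 656 genes passed, and with the close libraries averaged, 2 genes and 0 members did. Leaving out each library gave 253 to 1354 genes and 3 to 11 members, with the most of both without NCc. In the 4 libraries, 2 genes passed, against 0 without the filter, 264 with voom and 0 to 70 without each library in turn. There, 3 members passed with voom, against 0. As labelled, 0 genes passed under every alternative run. What caused these shifts was not tested. For the 21 genes with printed fit values by column name, no alternative turned the direction, 71 values were no longer past the threshold and 1 newly was. A pseudocount of 0.1 left the 9 members unchanged. Quantile normalization left 6, without *TPM1*, *MYH9* and *DIAPH1*. The same sum in each library also left 6, without *CNN2*, *MYH9* and *DIAPH1*.

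Libraries of the same letter deviated from their group means with r of 0.13 (a), -0.05 (b) and 0.20 (c), and NCb and siPrp19b each correlated best with another letter, so the letters were not taken to pair the libraries. With the replicate block, 928 genes and 8 members passed by column name, without *DIAPH1*. As labelled, r was 0.39, -0.17 and 0.32 for replicates 1, 2 and 3, and with the replicate block 0 genes passed and 263 had an unadjusted p-value under 0.05, against 191 without it. Few reads limited what could be seen of *MYL9*, *PARVA* and *CNN1*, with at most 1, 4 and 15 reads. Why their reads were few was not tested.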
